A study of Rattus norvegicus with 4 samples.

Results

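The miR-17, miR-18 and miR-19 seed families are represented on the rat array by 8 miRNAs, chosen by name from the 719 rat miRNAs that the array measures. They are rno-miR-17-5p, rno-miR-20a-5p, rno-miR-20b-5p, rno-miR-93-5p and rno-miR-106b-5p, which carry the miR-17 seed, rno-miR-18a-5p, which carries the miR-18 seed, and rno-miR-19a-3p and rno-miR-19b-3p, which carry the miR-19 seed. The prefix rno for rat is left out below. RNA was taken from exosomes, membrane vesicles shed by cells, in the serum of male rats in a study of hepatocellular carcinoma (HCC). There were 4 groups with 1 array each: naive serum with no injection at day 0, and serum called light at day 35, moderate at day 49 and severe at day 49 after the injection. The labels' treatment protocol has an HCC cell line injected, whereas the design text speaks of HCC exosomes given as 1 dose to rats it calls baffolo. Although the design text counts 4 independent experiments at each time, each with other rats, a group has 1 array here, and whether that array holds pooled RNA is not stated.

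MicroRNAs are short RNAs that guide the silencing complex to messenger RNAs, mostly by pairing of their seed, the bases near their 5′ end. The families described here are cut from a few long transcripts that carry several miRNAs each: miR-17-92, also known as oncomir-1, and its relatives miR-106b-25 and miR-106a-363. They are best known from human and mouse work as products of Myc- and E2f-driven transcription that promote cell cycle entry and survival, and the miR-17-92 and miR-106b-25 transcripts are often abundant in human HCC tissue. In blood they are abundant in cells and vesicles of the blood-forming lineages, so a serum level is not a readout of liver alone.

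The mature sequences are shown because they define the families and because the array must separate members that differ at few bases. All 8 were matched in RefSeq (rat assembly GRCr8), and each is written 5′ to 3′ with the seed, bases 2 to 8, in capitals.
miR-17-5p: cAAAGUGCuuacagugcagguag
miR-20a-5p: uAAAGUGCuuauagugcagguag
miR-20b-5p: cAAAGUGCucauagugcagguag
miR-93-5p: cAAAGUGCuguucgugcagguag
miR-106b-5p: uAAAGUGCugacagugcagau
miR-18a-5p: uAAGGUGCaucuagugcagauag
miR-19a-3p: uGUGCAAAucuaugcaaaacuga
miR-19b-3p: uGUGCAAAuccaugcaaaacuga

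The first 5 sequences share 1 seed, so that by seed pairing they address largely the same messenger RNAs. With positions counted from 1 at the 5′ end, miR-17-5p and miR-20a-5p differ by C1U and C12U, and miR-20a-5p and miR-20b-5p by U1C and U10C, so both pairs share 21 of 23 bases. miR-106b-5p is the shortest member and shares 18 of 21 aligned bases with miR-17-5p, differing by C1U, U10G and G20A. miR-18a-5p shares 17 of 23 bases with miR-17-5p, and its seed differs from that of miR-17-5p by A4G. miR-19a-3p and miR-19b-3p share 22 of 23 bases and differ by U11C, outside the seed. The probe sequences were not among the files used here, and how far a probe for 1 member also binds a near-identical member was not tested.

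RefSeq places the members in 3 clusters of GRCr8. The miR-17-92 cluster lies on the plus strand at chr15:98587861-98588622 and holds 6 miRNA genes over 762 bases, among them those of miR-17-5p, miR-18a-5p, miR-19a-3p, miR-20a-5p and miR-19b-3p. The miR-106b-25 cluster lies on the minus strand at chr12:22156652-22157123, within the gene Mcm7, which encodes a subunit of the replicative helicase, and holds miR-106b-5p and miR-93-5p together with miR-25. The miR-106a-363 cluster lies on the minus strand at chrX:137342788-137343637 and holds miR-20b-5p. The mature miR-17-5p sequence is also encoded there by Mir106a at chrX:137343615-137343637, besides Mir17 at chr15:98587861-98587883, and miR-19b-3p is encoded by 1 gene in the miR-17-92 cluster and 1 in the miR-106a-363 cluster. A signal for miR-17-5p or miR-19b-3p therefore cannot be assigned to 1 of these transcripts.

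The level of a miRNA is its background-subtracted signal, averaged over replicate spots of a probe and summed over its 2 probes, in intensity units. To set arrays side by side, each array was scaled to the 75th percentile of its signals, taken over 111 miRNAs that were detected everywhere. That percentile was 666, 356, 954 and 415 units from naive, light, moderate and severe serum. An error given with ± is the standard error over spots of 1 array, and a difference between arrays is a log2 difference of scaled signals. With 1 array per group there is no replicate error and no test, and the number of arrays limits the precision of every statement. The spread between probes of the same miRNA, a standard deviation of 0.08 to 0.21 in log2 differences depending on the comparison, is wider than the spot error and is the yardstick used for differences between members. The scanner software detected 140, 122, 176 and 129 miRNAs from naive, light, moderate and severe serum. The arrays differed in overall brightness: the summed signal of detected miRNAs was 0.643, 1.58 and 0.694 times that of the naive array on the light, moderate and severe arrays, while the labelling spike-ins were at 1.004, 0.891 and 0.620 times. In serum, fewer vesicles from a cell type and less of a miRNA per vesicle cannot be told apart.

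All 8 members were measured on all 4 arrays. Of their 640 spots, 618 were used and 22 were left out as outliers, and all 618 were well above background. Every member was at 7.03 or more times the floor below which a miRNA counted as not measured, the lowest ratio being that of miR-18a-5p on the severe array. The standard error over spots was between 0.454% and 2.44% of the signal.

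The miR-17 seed members of the miR-17-92 cluster are described first. miR-17-5p, which in human cells represses the cell cycle factor E2F1, gave unscaled signals of 956 ± 8.73 on the naive, 669 ± 11.6 on the light, 1543 ± 15.9 on the moderate and 346 ± 3.85 on the severe array. After scaling its log2 levels were 0.52, 0.91, 0.69 and −0.26 in the same order. The light array was thus the highest after scaling and the severe array the lowest, whereas before scaling the moderate array was the highest. miR-20a-5p, which acts on several E2F genes in human cells, gave 1793 ± 12.9, 1364 ± 15.0, 3106 ± 28.1 and 770 ± 8.19 units. Its log2 scaled levels were 1.43, 1.94, 1.70 and 0.89, in the same order of arrays as miR-17-5p.

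miR-20b-5p, the member on chromosome X that repeats the same seed, gave 1011 ± 7.5, 779 ± 10.5, 1748 ± 15.0 and 413 ± 2.45 units from naive, light, moderate and severe serum. Its log2 scaled levels of 0.60, 1.13, 0.87 and −0.01 again put light first and severe last. It followed miR-20a-5p closely: the gap between their log2 differences from naive was 0.02 on the light and −0.07 on the severe array.

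The pair within Mcm7 did not share a profile. miR-93-5p, which with miR-106b-5p represses the cell cycle inhibitor p21 in human cells, gave 498 ± 7.86, 341 ± 6.56, 789 ± 9.25 and 219 ± 3.80 units, and its log2 scaled levels were −0.42, −0.06, −0.27 and −0.92. Like the members above, it was lowest on the severe array. miR-106b-5p gave 647 ± 4.07, 583 ± 4.16, 1372 ± 6.24 and 462 ± 5.93 units, and log2 scaled levels of −0.04, 0.71, 0.52 and 0.15. It was the only one of the 8 members whose scaled level was lowest on the naive array and not on the severe array, although its unscaled signal was lower on the severe than on the naive array. Its level was also lower on the severe than on the naive array when the members were left out of the percentile used for scaling.

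miR-18a-5p, known in human cells for the nuclear protein hnRNP A1 that promotes its processing from the shared transcript, gave 376 ± 5.33, 273 ± 3.94, 597 ± 7.93 and 113 ± 2.75 units. Its log2 scaled levels were −0.83, −0.38, −0.68 and −1.88, a range of 1.5 over the arrays against 0.75 to 1.17 for the other members. The severe array stood apart from the other arrays in this member.

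The miR-19 pair is known in mouse lymphoma as the main cancer-promoting component of the miR-17-92 cluster. miR-19a-3p gave 802 ± 3.69, 707 ± 3.63, 1448 ± 7.62 and 407 ± 3.46 units, and log2 scaled levels of 0.27, 0.99, 0.60 and −0.03. miR-19b-3p gave 3524 ± 20.4, 2818 ± 23.8, 6660 ± 56.6 and 1634 ± 16.4 units, and log2 scaled levels of 2.40, 2.98, 2.80 and 1.98. Both were highest on the light array and lowest on the severe array after scaling.

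**Figure D1:**
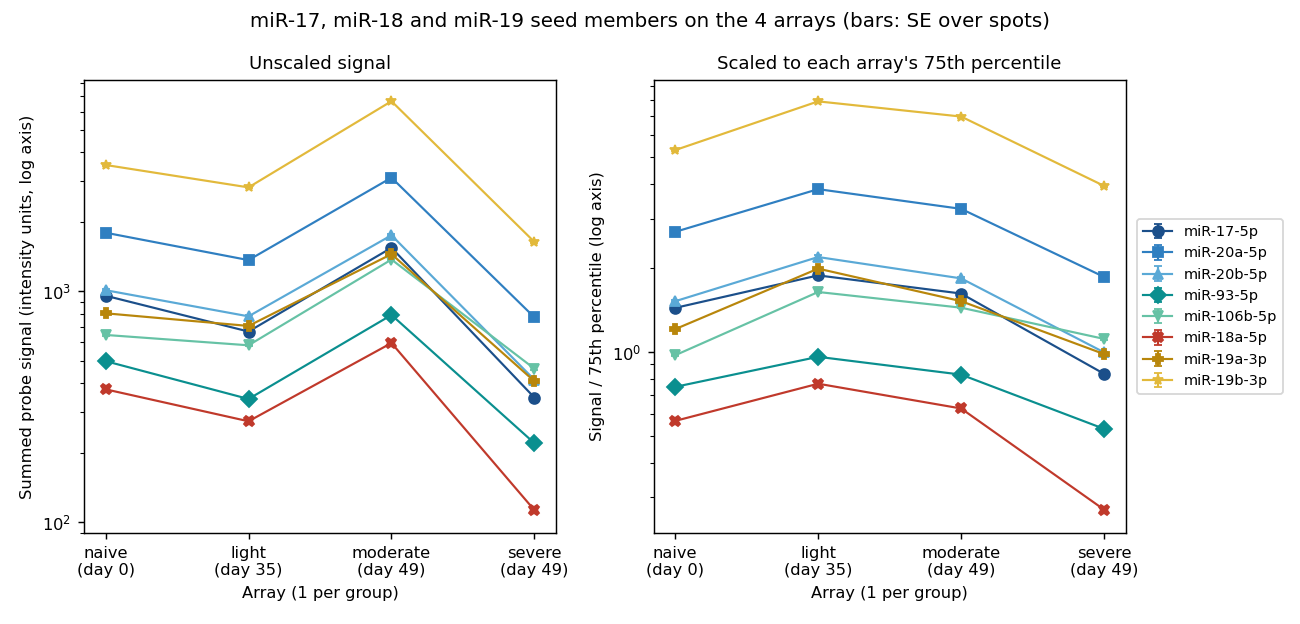
Summed probe signal (left, intensity units) and the same signal over the array's 75th percentile (right), both on log axes, for the 8 members from naive, light, moderate and severe serum; the bars are standard errors over spots, and the lines link the points of 1 miRNA only as a guide. Before scaling all 8 were highest on the moderate array, and after scaling all 8 were highest on the light array and 7 lowest on the severe array.

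The order of the arrays was light, moderate, naive and severe for 7 members, and light, moderate, severe and naive for miR-106b-5p. Within a member, the smallest gap between neighbours in that order was 0.15 in miR-93-5p, which is 5.16 times its spot error, and also 0.15 in miR-18a-5p; both are moderate against naive. In that comparison the probes of miR-93-5p gave 0.12 and 0.33 and those of miR-18a-5p 0.16 and 0.14. Over the other processing settings given below, the value reached down to −0.02 in miR-93-5p and −0.13 in miR-18a-5p. These neighbours are therefore not clearly apart in either member. The same holds for 3 more members, where the value reached down to −0.22 in miR-20a-5p, −0.002 in miR-20b-5p and 0 in miR-17-5p. It stayed above 0 in miR-106b-5p, miR-19a-3p and miR-19b-3p. Without scaling the order was moderate, naive, light and severe for all 8, so that the places of the light, moderate and naive arrays depended on the scaling while severe was lowest for 7 of 8 members on the scaled and 8 of 8 on the unscaled values.

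Light disease at day 35 was set against the naive state. After scaling all 8 members were higher on the light array, by 0.36 to 0.75 in log2, but without scaling all 8 were lower, at 0.685 to 0.902 times the naive signal. The median over the members was 0.52, beside 0.27 over the 117 miRNAs measured on both arrays, and 8 of 8 members lay above that median of all, whereas with normexp, another background correction, 5 of 8 lay below it. miR-106b-5p was the highest at 0.75 ± 0.01, a 1.69-fold higher scaled signal, and was above 105 of the 117. miR-19a-3p followed at 0.72 ± 0.01, and miR-93-5p was the lowest member at 0.36 ± 0.04. None of the 8 members was 2-fold higher or 2-fold lower, where 1.71% of the 117 miRNAs were higher by that much and 0.855% lower. Disease and day differ together in this comparison, as in the others with the naive array.

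Moderate disease at day 49 gave smaller differences from naive than light disease after scaling and larger ones without it. The 8 members were higher by 0.15 to 0.57, with a median of 0.27 beside 0.22 over 126 miRNAs, and 3 members, miR-17-5p, miR-93-5p and miR-18a-5p, lay below that median. miR-106b-5p was again the highest member, at 0.57 ± 0.01 or 1.48-fold, above 99 of the 126 miRNAs. miR-19b-3p was higher by 0.40 ± 0.01 and miR-93-5p by 0.15 ± 0.03. Of the 8 members 0 were past 2-fold, beside 6.35% of all miRNAs higher and 0.794% lower. Unscaled, the members were at 1.58 to 2.12 times the naive signal.

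Severe disease at day 49 was the comparison with naive in which most members were lower. The 5 miR-17 seed members had a median of −0.54, with miR-17-5p at −0.79 ± 0.02, a 1.72-fold lower scaled signal, miR-20b-5p at −0.61 ± 0.01, miR-20a-5p at −0.54 ± 0.02 and miR-93-5p at −0.50 ± 0.03. miR-106b-5p was the exception at 0.20 ± 0.02. That value turned negative without scaling, at −0.49, and also with the members left out of the percentile used for scaling. miR-18a-5p had the largest difference of the 8, −1.06 ± 0.04 or 2.08-fold lower, and 19 of the 109 miRNAs measured on both arrays were lower still. The miR-19 pair was at −0.30 ± 0.01 for miR-19a-3p and −0.43 ± 0.02 for miR-19b-3p. The median of the 8 was −0.52 beside −0.11 over all, and 7 of 8 lay below the median of all.

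A single member, miR-18a-5p, was at least 2-fold lower and 0 were 2-fold higher on the severe against the naive array, while 19.3% of all miRNAs were lower and 22.0% higher by that much. A count of 1 in 8 is no more than that background. The standard deviation of the 8 differences was 0.37 in log2, against 1.35 over all 109 miRNAs. The members were chosen as 1 family, share seeds and transcripts, and are not independent of each other.

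Severe against moderate is the comparison at a shared day. All 8 members were lower on the severe array, by 0.37 to 1.21 in log2, with a median of −0.82 beside −0.41 over 115 miRNAs. miR-18a-5p was again the lowest at −1.21 ± 0.04, 2.31-fold lower, and 16 of the 115 miRNAs were lower still. miR-17-5p was at −0.96 ± 0.02, miR-20b-5p at −0.88 ± 0.02, miR-19b-3p at −0.83 ± 0.02 and miR-20a-5p at −0.81 ± 0.02. miR-93-5p, miR-19a-3p and miR-106b-5p differed least, at −0.65 ± 0.03, −0.63 ± 0.01 and −0.37 ± 0.02, and miR-106b-5p was the only member above the median of all. Past 2-fold there was 1 member, miR-18a-5p, beside 20.0% of all miRNAs lower, and there were 0 members among the 22.6% that were higher.

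After scaling, all members on the light array differed least from the moderate array. They differed most from the severe array, except miR-106b-5p, which differed most from the naive array. Without scaling they differed most from the moderate array, except miR-18a-5p, which differed most from the severe array. In severe against light, all 8 were lower, with a median of −1.03 beside −0.47 over 104 miRNAs, and 6 were at least 2-fold lower where 32.7% of all miRNAs were lower and 21.2% higher by that much. Those 6 were miR-17-5p, miR-20a-5p, miR-20b-5p, miR-18a-5p, miR-19a-3p and miR-19b-3p, at −1.17, −1.05, −1.14, −1.50, −1.02 and −1.01, so that several lay close to the threshold. Unscaled, the members were at 0.412 to 0.792 times the light signal, with miR-18a-5p alone past 2-fold.

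In moderate against light the members lay together, between −0.39 for miR-19a-3p and −0.18 for miR-19b-3p, with a standard deviation of 0.07 against 0.61 over 117 miRNAs. Their median was −0.23 beside −0.01 over all, and 8 of 8 lay below the median of all. None passed 2-fold in either direction, beside 6.84% of all miRNAs in each. Without scaling the same members were at 2.05 to 2.36 times the light signal, so the sign of this comparison depended on the scaling.

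**Figure D2:**
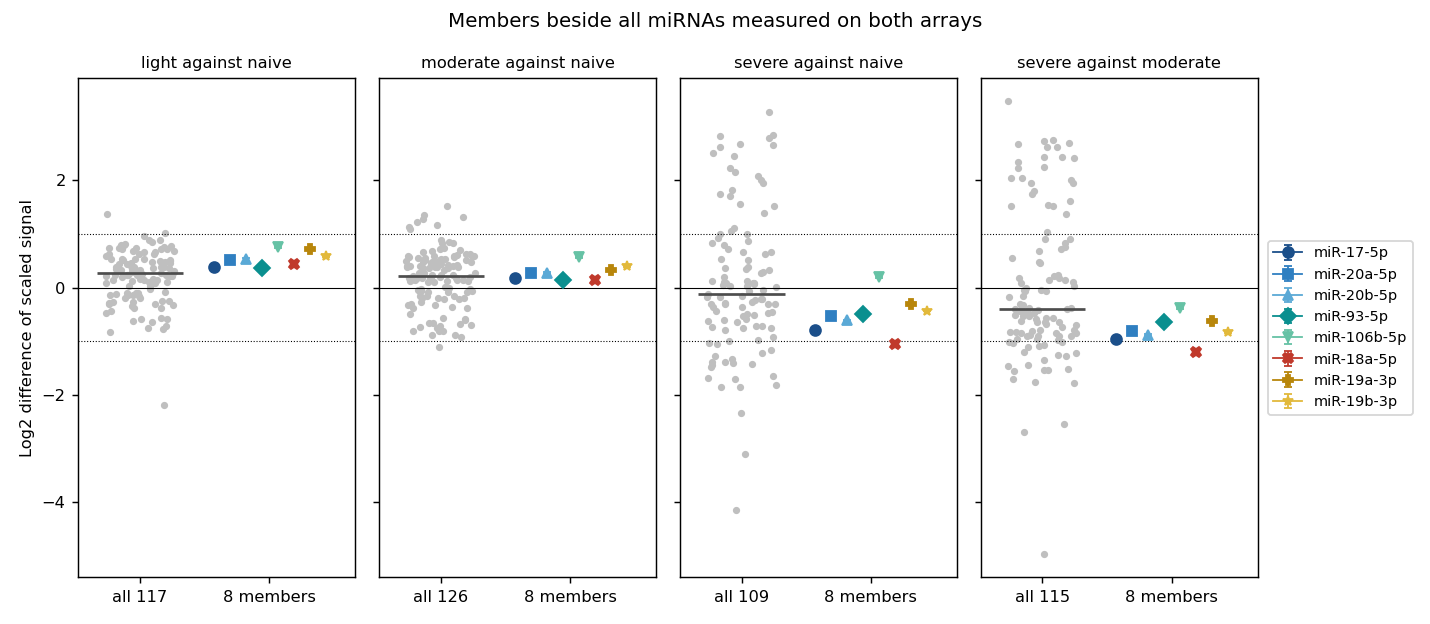
Log2 difference of scaled signal for all miRNAs measured on both arrays (grey points, with their median as a bar) and for the 8 members (coloured symbols, with standard errors over spots), in 4 comparisons; the dotted lines mark 2-fold. The members lie close together within a wide table, with miR-106b-5p highest and miR-18a-5p lowest in both comparisons of the severe array.

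The 3 comparisons with the naive array share that array, and the comparisons of the severe array share the severe array, so their values are given side by side and are not independent of each other. The counts over all miRNAs moved with the scaling. On unscaled signals, 0 miRNAs were 2-fold higher and 32 lower in light against naive, in place of 2 and 1; 36 higher and 0 lower in moderate against naive, in place of 8 and 1; 17 and 42 in severe against naive, in place of 24 and 21; and 13 and 78 in severe against moderate, in place of 26 and 23. With the spike-ins as reference the counts higher and lower were 0 and 33 in light against naive, 57 and 0 in moderate against naive and 20 and 62 in severe against moderate. Scaling to the median gave 1 and 5 in light and 6 and 4 in moderate against naive, and quantile normalization gave 1 and 1, and 4 and 6. With the members left out of the percentile the counts were 9 and 0 in moderate against naive and 24 and 46 in severe against moderate, and with the percentile over the 2 arrays compared they were 1 and 1 in light against naive and 25 and 39 in severe against moderate. The median over all miRNAs moved with them, from −0.64 to 0.27 in light against naive and from −1.61 to −0.15 in severe against moderate over these scalings. Differences between members measured on the same arrays do not contain a scale factor, and they are given next.

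The pair encoded in Mcm7 differed although it shares a seed and a transcript. miR-106b-5p exceeded miR-93-5p by 0.40 ± 0.04 in light against naive, 0.42 ± 0.03 in moderate against naive and 0.70 ± 0.04 in severe against naive. The gap was 0.27 ± 0.04 in severe against moderate and 0.03 ± 0.04 in moderate against light. The gaps against naive were 3 or more times the probe standard deviation of 0.08, 0.09 and 0.21, the one in severe against moderate was not far above its 0.19, and the one in moderate against light was below its 0.11. The 2 probes of miR-106b-5p gave 0.18 and 0.23 in severe against naive, and those of miR-93-5p gave −0.53 and −0.31.

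By cluster, the Mcm7 pair lay above the miR-17-92 pair of the same seed, miR-17-5p and miR-20a-5p, by 0.11 in light, 0.13 in moderate and 0.51 in severe against naive. In severe against naive that gap came mostly with miR-106b-5p, since miR-93-5p was at −0.50 beside −0.54 for miR-20a-5p. In light and moderate against naive the gap came with miR-106b-5p alone. There miR-93-5p, at 0.36 and 0.15, lay below miR-17-5p, at 0.39 and 0.17, and below miR-20a-5p, at 0.51 and 0.27. miR-20a-5p exceeded miR-17-5p, whose sequence is encoded on chromosome X too, by 0.12, 0.10 and 0.25 in light, moderate and severe against naive. The 2 probes of miR-17-5p themselves gave −0.82 and −0.62 in severe against naive, and those of miR-20a-5p gave −0.57 and −0.48, so that the gap between these members was smaller between the dimmer probes. In moderate against naive the brighter and dimmer probes gave 0.14 and 0.35 for miR-17-5p and 0.25 and 0.31 for miR-20a-5p. The dimmer probes thus put miR-17-5p above miR-20a-5p in that comparison.

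By seed, the miR-19 pair lay above the miR-17 seed median by 0.14, 0.09 and 0.18 in light, moderate and severe against naive and by 0.08 in severe against moderate. None of these 4 values exceeded 2 probe standard deviations. miR-18a-5p lay below the miR-17 seed median by 0.07 in light and 0.12 in moderate against naive, with contrasts of −0.07 and −0.12, and its contrast was −0.52 in severe against naive and −0.40 in severe against moderate. Both probes of miR-18a-5p gave about the same difference in severe against naive, −1.04 and −1.08. With normexp this contrast was −0.0018 in severe against naive and 0.20 in severe against moderate. Normexp here added 50 units to each spot, which by construction shrinks the differences of a miRNA such as miR-18a-5p, whose summed signal on the severe array was 113 units. This setting also changed the background model and took the median over pixels of a spot, and which of these moved the contrast was not tested. Against miR-106b-5p, the member at the other end, the contrast of miR-18a-5p was −1.25 ± 0.05 in severe against naive and −0.83 ± 0.05 in severe against moderate.

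**Figure D3:**
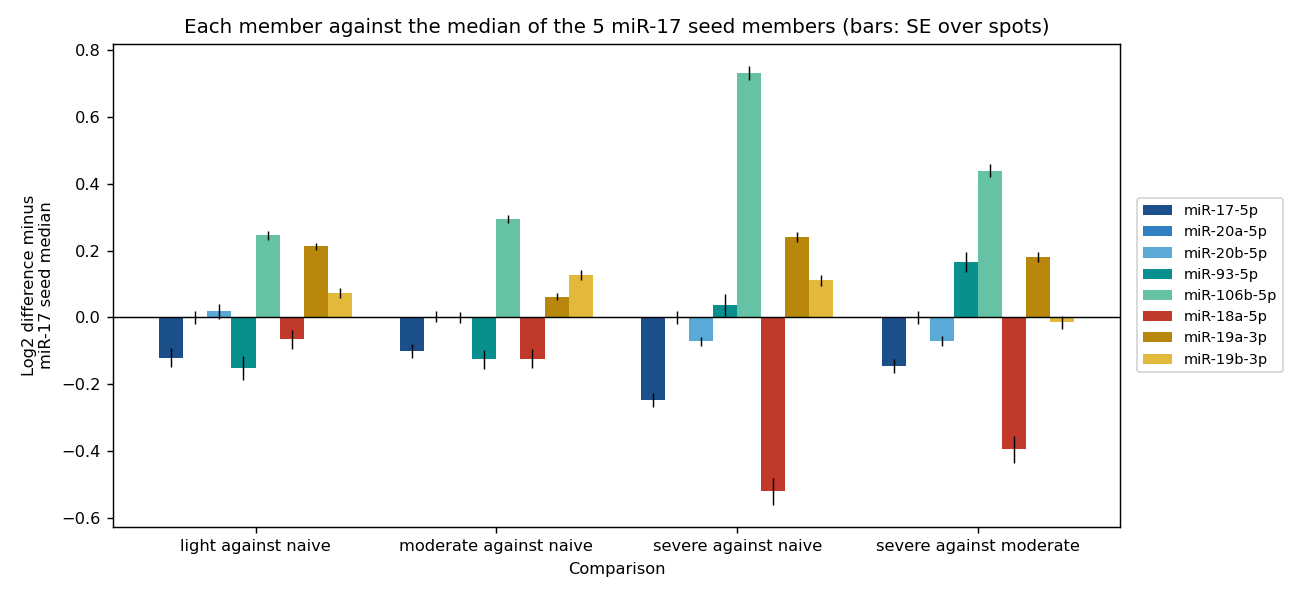
Log2 difference of each member minus the median of the 5 miR-17 seed members, in 4 comparisons, as bars from 0 with standard errors over spots; an array's scale factor cancels in these values. miR-106b-5p stands above the others in each comparison and by most in severe against naive, and miR-18a-5p stands below them in both comparisons of the severe array.

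The other products of the same transcripts were looked up as a list of 17 miRNAs, 14 of which were detected on no array. The 10 opposite arms of the members' own precursors, such as miR-17-1-3p and miR-93-3p, were among them: their summed signals lay between −33.1 and −1.65 units, and 0 of their 775 spots was well above background. The signal of these precursors therefore came from 1 arm on these arrays. Of the mates with a different seed, that of miR-92, miR-92a-3p and miR-25-3p lay below all members in light against naive, at 0.03 and 0.02. In moderate against naive miR-25-3p, at 0.14, was close to miR-93-5p, at 0.15. In severe against naive both mates lay within the range of the members. miR-92a-3p, the last miRNA of the miR-17-92 transcript, gave 4235, 2319, 5967 and 2862 units from naive, light, moderate and severe serum, and the median of the members from that transcript differed from it by 0.47, 0.30 and −0.65 in light, moderate and severe against naive and by −0.97 in severe against moderate. miR-92a-3p is itself encoded by 2 genes, so its signal is not that of the transcript alone. miR-25-3p, the third product within Mcm7, gave 988, 537, 1556 and 543 units, and the mean of the Mcm7 pair differed from it by 0.53, 0.22 and 0.03 in light, moderate and severe against naive and by −0.19 in severe against moderate, −0.31 in moderate against light and −0.50 in severe against light. The 0.03 averages opposite members, since in severe against naive miR-25-3p was at −0.18, miR-93-5p below it at −0.50 and miR-106b-5p above it at 0.20. miR-363-3p, from the cluster on chromosome X, gave 15.1, 15.6, 41.7 and 3.27 units, near the floor on the naive and light arrays, above it on the moderate array and not detected on the severe array.

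Among the 96 other miRNAs measured on all arrays, likeness was measured as the root mean square difference of centred log2 levels over the 4 arrays. For the miR-17 seed, the profile was the median of its members' levels within each array, taken before centring. It was thus the level of miR-20b-5p in severe serum and that of miR-17-5p elsewhere. Its light and moderate differences from naive were 0.39 and 0.17, as in miR-17-5p. The medians of the members' differences were 0.51 and 0.27. Nearest to this profile were miR-30e-5p at 0.058, miR-16-5p at 0.075, let-7i-5p at 0.088, miR-451-5p at 0.104 and miR-186-5p at 0.127. The median over the 96 was 0.428. miR-106b-5p was 0.257 from this same profile and miR-18a-5p was 0.235 from it, farther than those 5 miRNAs. Distances to a profile built from the members' median differences were not computed. The miR-19 pair was nearest to miR-872-5p at 0.081, miR-146a-5p at 0.083 and miR-301a-3p at 0.099, with a median of 0.457, and miR-18a-5p to miR-342-3p at 0.120, miR-26a-5p at 0.139 and miR-26b-5p at 0.148, with a median of 0.510. With 4 arrays many profiles are alike, and nothing about shared origin follows from these distances.

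Marker miRNAs of blood cells differed on the same arrays; exosome markers are proteins and were not measured. The summed unscaled signal of the red-cell list of 4, 3 of them measured on all arrays and miR-144-5p not, was 35014, 24179, 55154 and 17161 units from naive, light, moderate and severe serum. The platelet list, with 3 of 4 measured on all arrays and miR-191a-5p not, summed to 9564, 6866, 20092 and 3672. Each sum in this paragraph takes every miRNA of its list, also those not detected, whose signals can be negative. For instance, miR-191a-5p entered at −15.9 units on the light and −32.4 on the severe array. The myeloid and leukocyte list, with 4 of 4, summed to 7495, 5737, 15731 and 2681, and the lymphocyte list, with 2 of 3, to 925, 508, 1113 and 133. All these sums were highest on the moderate and lowest on the severe array, as the unscaled signals of the 8 members were, but a single bright miRNA carries most of the red-cell, platelet and myeloid sums. The summed signal of all detected miRNAs was also highest on the moderate array, at 1.58 times naive, with light at 0.643 and severe at 0.694. A highest value on the moderate array is therefore not particular to these lists or to the members. miR-223-3p is in both the platelet and the myeloid list and gave 14519 units on the moderate array. Single markers differed from their sums: miR-142-3p, at 516, 475, 400 and 328 units, and miR-150-5p, at 502, 252, 486 and 36.3, were highest on the naive array, and miR-144-3p, at 169, 234, 212 and 371, on the severe array. The hepatocyte list, with 2 of 3 measured and miR-194-5p not detected, summed to 1430, 272, 1416 and 995 and was lowest on the light array. Its 2 measured miRNAs went apart. miR-122-5p gave 1123, 132, 964 and 417 units and was highest on the naive array. miR-192-5p gave 321, 151, 463 and 588 units and was highest on the severe array.

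After scaling, miR-451-5p, the defining red-cell miRNA, differed by 0.39, 0.14 and −0.30 in light, moderate and severe against naive. In severe against naive 6 of 8 members lay below it, and in moderate against naive 0 did. The gap of miR-451-5p over miR-23a-3p, used as a sign of red-cell lysis in serum, changed by 0.02, −0.40 and −0.36 in these comparisons. miR-150-5p and miR-342-3p, the lymphocyte miRNAs measured on all arrays, were at −3.11 and −1.33 in severe against naive, and the red-cell miR-144-3p was at 1.82. The part of blood cell content in the members' differences was not tested.

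The arrays were also processed in 14 other ways, of which 6 only rescale an array or change which miRNAs set the scale and so cannot change the order of the members. In the other 8, miR-106b-5p was the highest member in 8 of 8 in each of light, moderate and severe against naive and severe against moderate. miR-18a-5p was the lowest in 6 of 8 in severe against naive and in severe against moderate, the exceptions being quantile normalization and normexp. These 8 share spots and are not independent of each other: the software's total signal and the value table, for instance, hold nearly the same numbers. The position against the median of all miRNAs was free to change in 9 settings in severe against naive and in 8 in severe against moderate, and at least 7 members lay below that median in 9 and 8 of them. The member median itself was below 0 in 14 of 14 in both comparisons of the severe array. In light against naive it was above 0 in 12 of 14 settings and −0.39 both without scaling and with the spike-ins.

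**Figure D4:**
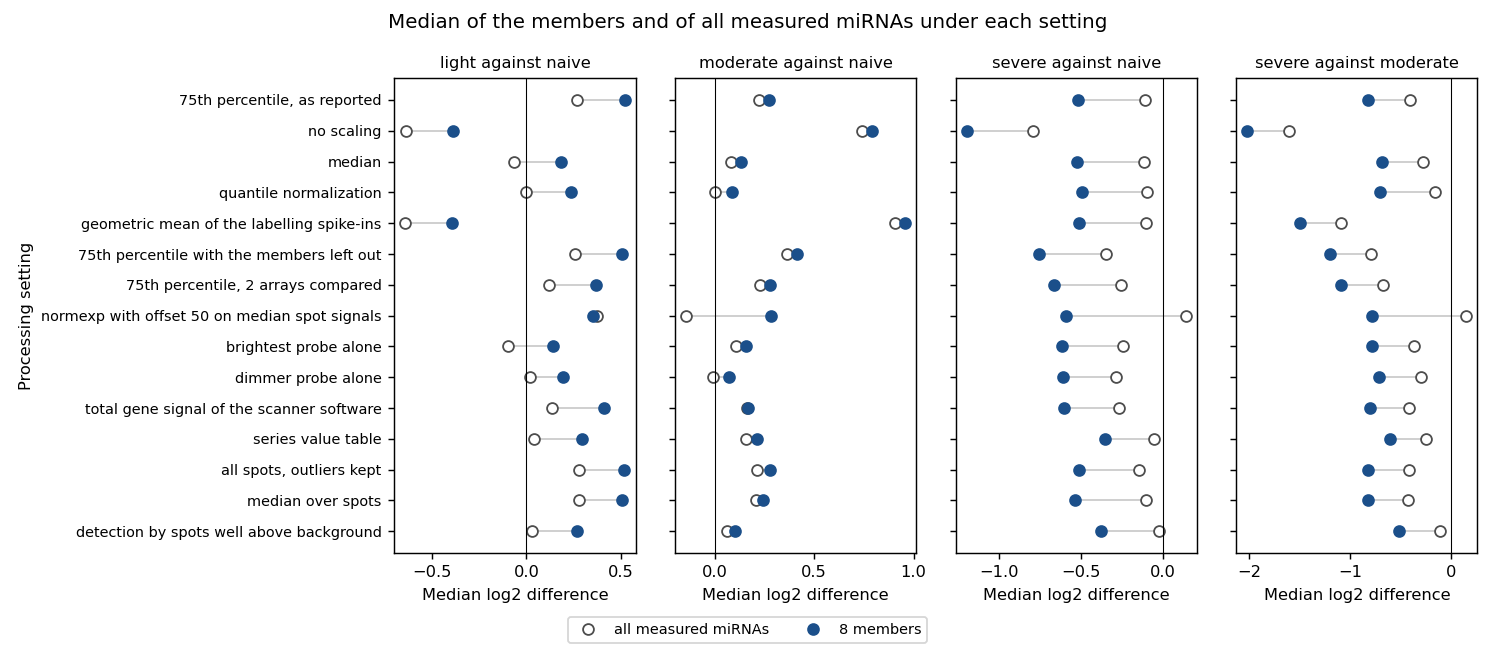
Median log2 difference of the 8 members (filled) and of all measured miRNAs (open) under the reported processing and 14 others, in 4 comparisons. The medians shift together with the scaling, and the median of the members lies below that of all miRNAs in every setting in both comparisons of the severe array.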

How the data were processed

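The deposited spot intensity values come from 1-colour (Cy3) Agilent rat miRNA arrays, and, per the file headers, the scanner software Feature Extraction 10.7.3.1 subtracted background with spatial detrending and did not scale arrays to each other; the submitters' processing notes give version 9.1 instead. According to the headers the grid is design 046066 on rn4, whose coordinates were not used, and the 4 arrays share 1 slide and 1 scan time. The labelling protocol given with the samples is one for amplifying messenger RNA, and this was not resolved. The deposited value table of 102 miRNAs, which holds all 8 members, gave the software's total intensity within 0.0424%, linear and unscaled, with a median of 189 for naive, 107 for light, 304 for moderate and 114 for severe; how its miRNAs were chosen is not given in the sources used here.

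Spots flagged as outliers were left out (386, 387, 386 and 525 of 14380), and 0 were saturated. Processed signals were averaged over spots, summed over probes, scaled to each array's 75th percentile (over 111 miRNAs detected everywhere) and converted to log2. A miRNA was measured where the software detected it and its signal reached a floor: the dimmest probe of that array of which a share of 0.5 or more of the spots stood well above background (15.6, 15.1, 13.1 and 16.0 units). All 8 members are named, with their cluster mates and the 5 or 3 nearest profiles. The members, lists and thresholds were chosen with earlier results of these data known. Groups came from the sample titles. The alternatives covered scaling, background, probes, spots, detection and the 2-fold threshold. Python 3.11.15, numpy 2.4.6, pandas 2.3.3, R 4.3.3 and limma 3.58.1 (normexp alone) were used, and the calculation of differences was checked on simulated data with known answers.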

Additional observations from a re-analysis of the deposited data

How the results depend on the processing

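With 1 array per group, spot error and the spread between probes are the only errors available, and disease cannot be told apart from the animals or, except in severe against moderate, from the day. No paired analysis was possible because each group has 1 array and no test was run. Over 14 alternative settings and a threshold of 1.5-fold, 294 of 344 alternative values of the medians, counts and contrasts stayed within the spread between probes, or within 1.5 times for counts, and 50 moved beyond it. In the 6 settings that only rescale an array or change which miRNAs set the scale, the contrasts between members cannot move. Part of the 294 was therefore fixed in advance, and their share of the 344 is not a measure of stability. The sign changed for the member median in light against naive without scaling and with the spike-ins, and for the contrast of miR-18a-5p in light against naive and in severe against moderate with normexp. The cause of these moves was not tested, beyond what a setting does by construction.

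The member median was 0.52, 0.27, −0.52 and −0.82 in light, moderate and severe against naive and in severe against moderate. Without scaling it was −0.39, 0.79, −1.20 and −2.02. With the spike-ins it was −0.39 in light, 0.96 in moderate and −1.50 in severe against moderate. Leaving the members out of the percentile gave 0.42 in moderate, −0.76 in severe against naive and −1.20 in severe against moderate. The percentile over the 2 arrays compared gave 0.37 in light and −1.09 in severe against moderate; this setting, the dimmer probe alone and normexp on the median spot signal were chosen after seeing the data, the last because the files hold no mean spot signal. In light and moderate against naive the median was 0.18 and 0.13 with scaling to the median, 0.24 and 0.087 with quantile normalization, 0.14 and 0.16 with the brightest probe, 0.19 and 0.072 with the dimmer probe, 0.41 and 0.17 with the software's total signal, and 0.27 and 0.10 with detection by spots well above background. It was 0.35 in light with normexp, 0.30 in light and −0.60 in severe against moderate with the value table, and −0.51 in severe against moderate with detection by spots.

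Counts past 2-fold moved as follows. In moderate against naive 1 member was higher without scaling and 3 with the spike-ins, where 28.6% and 45.2% of all miRNAs were. In light against naive 2 members were at least 1.5-fold higher. The share of all miRNAs past 1.5-fold was not computed, so counts at that threshold have no background beside them. In severe against naive, in place of 1 lower member, there were 6 without scaling and 2 with the members left out, beside 38.5% and 22.9% of all miRNAs. There were 3 at 1.5-fold. With normexp, the value table and detection by spots there were 0, beside 4.27%, 21.0% and 17.6% of all miRNAs. In severe against moderate, in place of 1, there were 8 without scaling, 8 with the spike-ins, 7 with the members left out and 5 with the percentile of the 2 arrays. The shares of all miRNAs lower in these settings were 67.8%, 53.9%, 40.0% and 33.9%. There were 7 members at 1.5-fold. With the value table and detection by spots there were 0, beside 19.0% and 11.4% of all miRNAs. The gap of the Mcm7 pair over miR-17-5p and miR-20a-5p was 0.41 in light and 0.45 in moderate against naive with quantile normalization. That of miR-18a-5p over the miR-17 seed median was 0.032 in light, −0.0018 in severe against naive and 0.20 in severe against moderate with normexp, and −0.19 in severe against moderate with quantile normalization. The 75th percentile over all miRNAs was not used, since it was near or below 0.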
